A study of Mus musculus with 2 samples.

Results

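The transcripts described here are those of 65 extracellular matrix genes, taken from the 28692 genes of the matrix by symbol. They are the collagen chains (symbols of the form Col, number, a, number), the laminin chains (Lama, Lamb and Lamc with a number) and Fn1, Sparc, Dcn, Lum, Postn, Fbln1, Vtn, Tnc, Vcan and Bcan. The rule uses symbols only and no measured value, but it was chosen with earlier results of these data known. The data are single-cell RNA counts from neural stem cells of C57/Bl6J mice, cultured from the subventricular zone, where new neurons form beside the brain's ventricles. The labels describe 1 control library (DMSO vehicle, per the series' design) and 1 library treated with 1 µM 20HC, an oxysterol, and both were taken 3 days after EGF and FGF had been withdrawn. The treatment text of the control library also mentions 20HC, so its group rests on its title; the labels do not say how many animals or cultures were pooled.

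Cell barcodes end in 1 or 2, and nothing ties a number to a library. Values are therefore given for barcode set 1 and barcode set 2 side by side, without a condition, and control and 20HC were not compared. The pooled matrix is 1 sample, so no p-value was computed, and all intervals are 95% intervals that cover counting error only.

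Collagens are trimers wound from chains of one or several genes. Fibrillar collagens (I, III, V) bear tension in connective tissue, collagen IV and the laminins form the sheets of basement membranes, and hyaluronan-binding proteoglycans such as brevican and versican fill much of the space between brain cells. In the brain, fibrillar collagen is largely kept to the meninges and the walls of vessels, and in the subventricular zone basement membrane reaches in from vessels as branched structures that contact stem cells.

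Of 14685 barcodes with 41462326 unique molecular identifiers (UMIs, 1 per captured transcript), 13028 cells were kept: 9630 in set 1 (median 2822 UMIs) and 3398 in set 2 (median 2888.5). The sets share 48 barcode sequences. Cells were clustered with the 65 genes left out, so that their levels did not draw the classes, and the clusters were named from markers that hold none of them. The classes were astrocyte-like (7038 cells), cycling-like (2281), neural progenitor-like (1565), oligodendrocyte precursor-like (548), neuroblast-like (422), hypoxia-response (275), fibroblast or mural-like (224), ependymal-like (143) and microglia-like (36), and 1 shallow cluster of 496 cells (median 1087.5 UMIs) stayed unnamed. The labels name neural stem cells only. The fibroblast or mural-like class was led by Acta2, Apod, Serpinf1, Igf2 and Tagln, with 13 of 16 fibroblast markers and 9 of 13 mural markers at 10 or more UMIs. Of the 10 endothelial markers, 3 had 10 or more UMIs in that class and 4 (Cldn5, Tek, Ly6c1 and Tie1) were at 0; their summed level was 126 CPM there and at most 29.0 CPM in the other classes, and their part in the results was not tested.

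Of the 65 genes, 46 had at least 30 UMIs in the kept cells and are called measured. Another 13 had between 1 and 24 UMIs, and 6 had none. Together the 65 genes gave 88301 UMIs. Sparc, a secreted glycoprotein that binds collagen and calcium, gave 49091 of them (55.6%) and was found in 71.5% of cells.

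Matrix transcripts were far denser in the fibroblast or mural-like cells than elsewhere. These 224 cells held 2.56% of all UMIs but 21.7% of the matrix UMIs (interval from 21.4 to 22%), and 37.5% of those other than Sparc (interval 37.0 to 37.9%). In CPM, the UMIs of a gene scaled to the same total in every class, the summed level was 19561 in fibroblast or mural-like cells, 19211 in set 1 and 20954 in set 2. It was 4023 in hypoxia-response, 3542 in ependymal-like and 2613 in astrocyte-like cells. Lower sums were found in oligodendrocyte precursor-like (1060), neural progenitor-like (705), cycling-like (352) and neuroblast-like cells (320). The map of all measured genes by class shows that the first column is bright over most collagens, while another group of genes is bright in the glial columns.

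**Figure D1:**
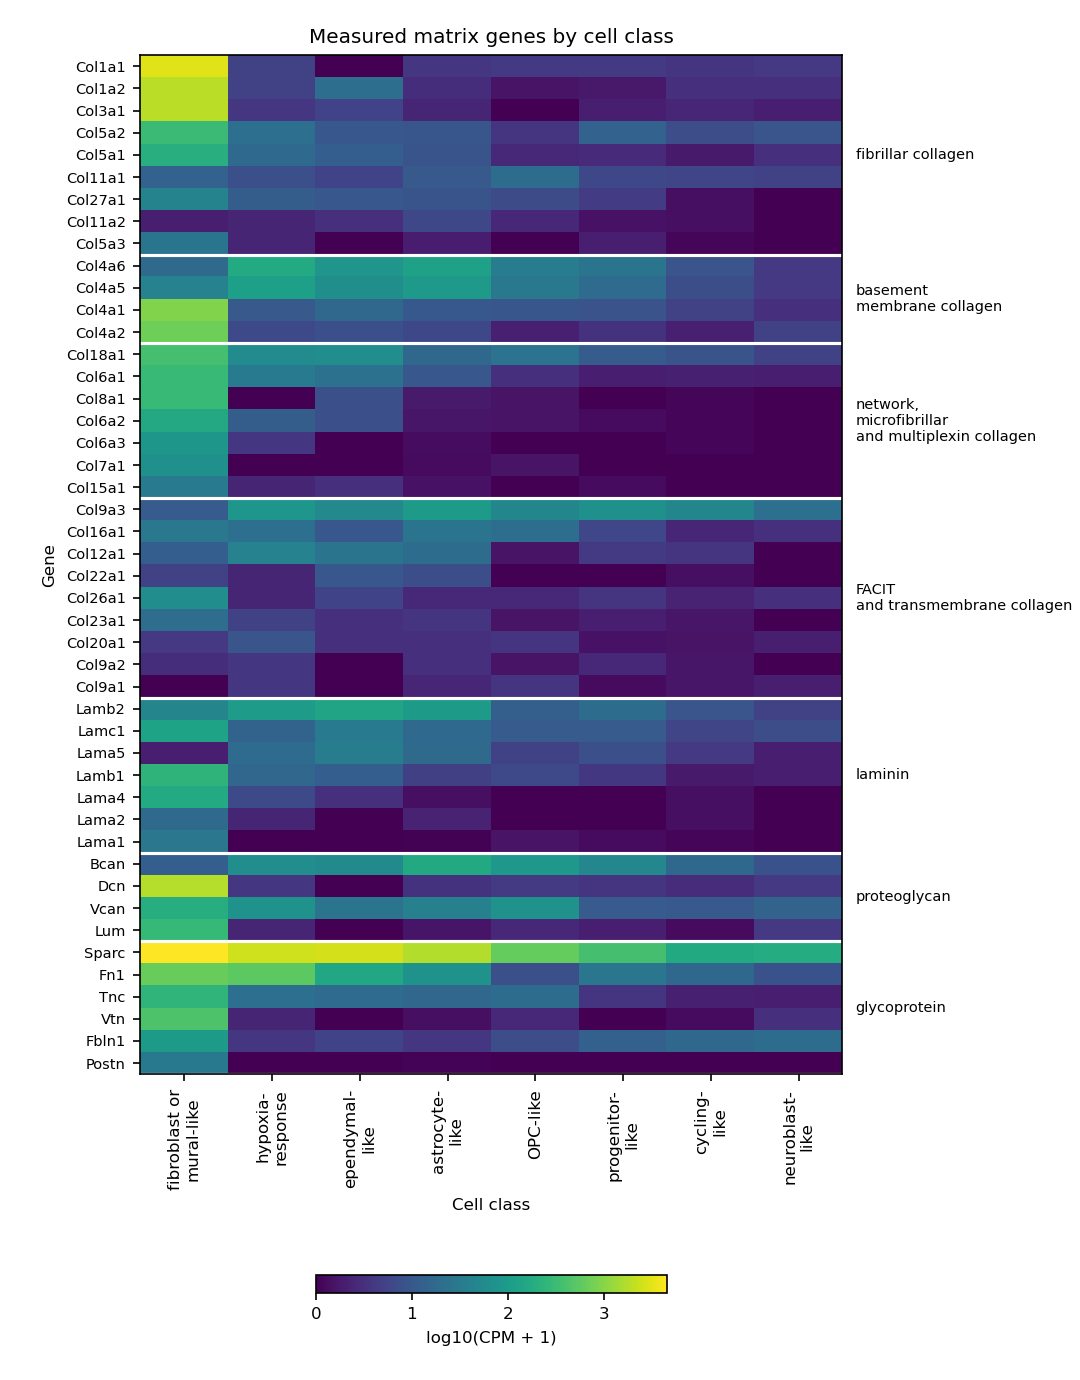
Level of the 46 measured matrix genes (rows, grouped by kind) in 8 cell classes (columns), as log10(CPM + 1) of summed UMIs. Col1a1 reached 3000 CPM in fibroblast or mural-like cells and at most 4.14 CPM in the other classes shown, while Col4a6 was at 122 CPM in astrocyte-like and 17.3 CPM in fibroblast or mural-like cells.

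Against all other kept cells, 32 of the 46 measured genes were called higher in fibroblast or mural-like cells and 4 lower. A gene was called where the levels differed by at least 1.5-fold over all cells and in each barcode set, and where the comparison level lay outside the Poisson interval of the class. Over all 13037 genes measured, 10.0% were called higher and 16.2% lower in this class. The median log2 ratio was 2.85 over the 46 genes and -0.19 over all measured genes (log2 ratios use CPM + 5). The UMI minimum was applied to class and comparison cells together, so a gene could reach it mainly through this class. Outside the class, 35 of the 46 genes reached it, as did 12895 of the 13037. The rest of the 46 were Col6a3, Postn, Col15a1, Lama4, Col6a2, Lum, Col5a3, Col7a1, Vtn, Col8a1 and Lama1, all called higher. The count of 32 and the median of 2.85 therefore rest in part on genes admitted by the class itself.

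Collagens I and III were among the genes that differed most. Col1a1, a chain of collagen I, was at 3000 CPM (interval 2893 to 3110) in fibroblast or mural-like cells, 2915 in set 1 and 3338 in set 2, against 3.64 CPM in all other cells. Col1a2, its partner chain, was at 1927 CPM, 1954 and 1819 in the sets, against 2.73. Col3a1, which forms collagen III, was at 1894 CPM, 1893 and 1900 in the sets, against 1.58. In both sets all 3 genes lay far above the other cells, by 706-fold to 1199-fold over all cells, and fibroblast or mural-like cells held 95.6%, 94.9% and 96.9% of their UMIs. Col5a1 (201 against 5.46 CPM), Col5a2 (308 against 8.46) and Col5a3 (25.5 against 0.67), chains of the collagen V that is built into collagen I fibrils, were also called higher, as was Col27a1 (42.8 against 5.70). The other measured fibrillar chains, Col11a1 and Col11a2, were not called; Col11a1 was at 13.3 CPM in the class and 8.22 outside.

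The upstream sequences of Col1a2 and Col3a1 are shown because both genes were nearly restricted to these 224 cells. Those of Col4a5 and Col4a6, further on, are shown because most UMIs of that pair lay in astrocyte-like cells. Sequences come from the RefSeq promoter table (build GRCm38.p6), in which 47 of the 65 symbols were found. They run 5′ to 3′ on the gene's strand within the 250 bases before the RefSeq start, without bases that the annotation places in an exon. Capitals mark a CCAAT box (CCAAT), a GC box (GGGCGG) or a TATA box (TATAAA) on either strand; these motifs share no letters where they occur here. Col1a2 lies on chromosome 6 (plus strand, shown chr6:4505370-4505492) and Col3a1 on chromosome 1 (plus strand, chr1:45311288-45311537).
Col1a2: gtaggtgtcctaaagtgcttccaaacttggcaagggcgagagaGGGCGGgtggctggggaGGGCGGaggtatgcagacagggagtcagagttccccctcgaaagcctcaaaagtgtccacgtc
Col3a1: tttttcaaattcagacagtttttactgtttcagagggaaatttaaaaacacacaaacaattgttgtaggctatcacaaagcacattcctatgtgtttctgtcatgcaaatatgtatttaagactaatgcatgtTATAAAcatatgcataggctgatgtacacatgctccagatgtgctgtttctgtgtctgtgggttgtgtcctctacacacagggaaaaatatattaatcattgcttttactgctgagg
GENCODE M21 also has a Col1a2 transcript that starts further upstream, at position 4504814, so the stretch shown lies before the RefSeq start but inside an intron of that transcript. The 123 bases of Col1a2 hold 2 GC boxes, and 13.3% of the table's 32851 promoters hold at least 1 in the same stretch. They end 126 bases before the RefSeq start, so the bases nearest that start were not searched. The 250 bases of Col3a1 hold 1 TATA box, as do 12.4% of promoters, and none of the other motifs. That match lies near the middle of the stretch, not next to the start.

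Among the laminin and collagen IV genes, the chains split between classes. Col4a1 and Col4a2, the chains of the collagen IV found in nearly all basement membranes, were at 919 and 719 CPM in fibroblast or mural-like cells. In set 1 they were at 890 and 685 CPM, and in set 2 at 1037 and 854. Outside the class they were at 7.76 and 3.83 CPM, so Col4a1 was 118-fold (interval 104 to 136) and Col4a2 188-fold (157 to 226) higher inside. The 2 genes lie head to head on chromosome 8, with annotated starts that overlap by 22 bases; UMIs were counted near 3′ ends, which lie apart.

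Col4a5 and Col4a6, which encode the other pair of collagen IV chains measured, were higher in astrocyte-like than in fibroblast or mural-like cells. Col4a6 was at 122 CPM in astrocyte-like cells (interval 117 to 127; 122 in set 1, 121 in set 2) and at 17.3 CPM in fibroblast or mural-like cells (interval 10.1 to 27.8). Col4a5 was at 91.7 CPM in astrocyte-like cells (90.2 and 95.6 in the sets) and at 40.8 CPM in fibroblast or mural-like cells. Astrocyte-like cells held 86.3% of Col4a6 and 85.5% of Col4a5 UMIs. Col4a6 was called lower in fibroblast or mural-like cells than outside, and Col4a5 was not called. The Col4a5 level there lay above those of oligodendrocyte precursor-like, neural progenitor-like, cycling-like and neuroblast-like cells. In sub-clusters of the class, described below, Col4a5 reached 96.6 and 76.4 CPM. Taking Col4a1 and Col4a6 UMIs together, Col4a1 made up 98.1% in fibroblast or mural-like cells (interval 97.1 to 98.9%) and 6.98% in astrocyte-like cells (6.07 to 7.99%). The remaining collagen IV genes were scarce: Col4a4 had 17 UMIs, and Col4a3 had none in 13028 cells, so up to 0.023% of cells could carry a UMI.

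Col4a5 and Col4a6 were in a similar proportion in 5 neural and glial classes, and in another in fibroblast or mural-like cells. Col4a5 made up 42.9% of their joint UMIs in astrocyte-like cells (interval 41.5 to 44.4%), 41.9% in neural progenitor-like, 44.4% in cycling-like, 45.2% in oligodendrocyte precursor-like and 39.7% in hypoxia-response cells, and the intervals of these 5 classes overlap. It made up 70.2% in fibroblast or mural-like cells (56.6 to 81.6%, from 57 UMIs). Within astrocyte-like cells, each thinned to 1500 UMIs, Col4a5 was found in 14.7% of cells with a Col4a6 UMI (interval 12.6 to 17.0%) and 12.2% of cells without (11.3 to 13.1%). The pair also lies head to head, on the X chromosome, with 1342 bases between the RefSeq starts. Their upstream sequences (Col4a5 plus strand, chrX:141475169-141475384; Col4a6 minus strand, chrX:141474077-141474326) follow.
Col4a5: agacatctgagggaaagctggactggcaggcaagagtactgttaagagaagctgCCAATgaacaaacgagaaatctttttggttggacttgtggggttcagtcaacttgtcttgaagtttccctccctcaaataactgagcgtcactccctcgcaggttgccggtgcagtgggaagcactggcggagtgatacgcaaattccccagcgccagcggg
Col4a6: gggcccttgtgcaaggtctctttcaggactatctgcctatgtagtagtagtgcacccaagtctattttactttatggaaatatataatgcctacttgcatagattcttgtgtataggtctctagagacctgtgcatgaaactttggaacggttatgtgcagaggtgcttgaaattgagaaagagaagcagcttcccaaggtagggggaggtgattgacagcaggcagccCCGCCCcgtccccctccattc
The 216 bases of Col4a5 hold 1 CCAAT box, as do 30.5% of promoters in that stretch, and the 250 bases of Col4a6 hold 1 GC box on the other strand, as do 32.7%. The 2 stretches have no motif in common, and neither holds a TATA box. The Col4a5 stretch ends 35 bases before its RefSeq start, so the bases nearest that start were not searched.

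Laminin chains also differed between fibroblast or mural-like and astrocyte-like cells. Lama4, an alpha chain known from vessel walls, was at 173 CPM in fibroblast or mural-like cells (157 and 239 in the sets) and 0.46 outside. Lama5, an alpha chain of many epithelial and vascular basement membranes, was at 1.02 CPM in that class, from 1 UMI, and at 17.3 CPM in astrocyte-like cells (16.8 and 18.6). Lama4 thus made up 99.4% of the UMIs of the pair in the one class (interval from 96.8% upward) and 2.37% in the other (1.09 to 4.46%). Of the beta chains, Lamb1 was at 241 CPM in fibroblast or mural-like cells (234 and 269 in the sets) and 3.97 in astrocyte-like cells. Lamb2 was at 44.9 CPM in fibroblast or mural-like cells (44.7 and 45.7) and 98.9 in astrocyte-like cells (95.1 and 109). Against all other cells Lamb2 was not called in the fibroblast or mural-like class. Lamb1 made up 84.3% of their joint UMIs in fibroblast or mural-like cells (79.5 to 88.3%) and 3.86% in astrocyte-like cells (3.09 to 4.75%).

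Lamc1, the gamma chain common to most laminins, was at 134 CPM in fibroblast or mural-like, 31.5 in ependymal-like and 16.9 in astrocyte-like cells. Lama1 (27.5 CPM, 27 of 31 UMIs) and Lama2 (17.3 CPM) were also called higher in the fibroblast or mural-like class. Lama3, Lamb3 and Lamc3 had 24, 8 and 13 UMIs in all. The plot of collagen IV and laminin chains gives both barcode sets for each class.

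**Figure D2:**
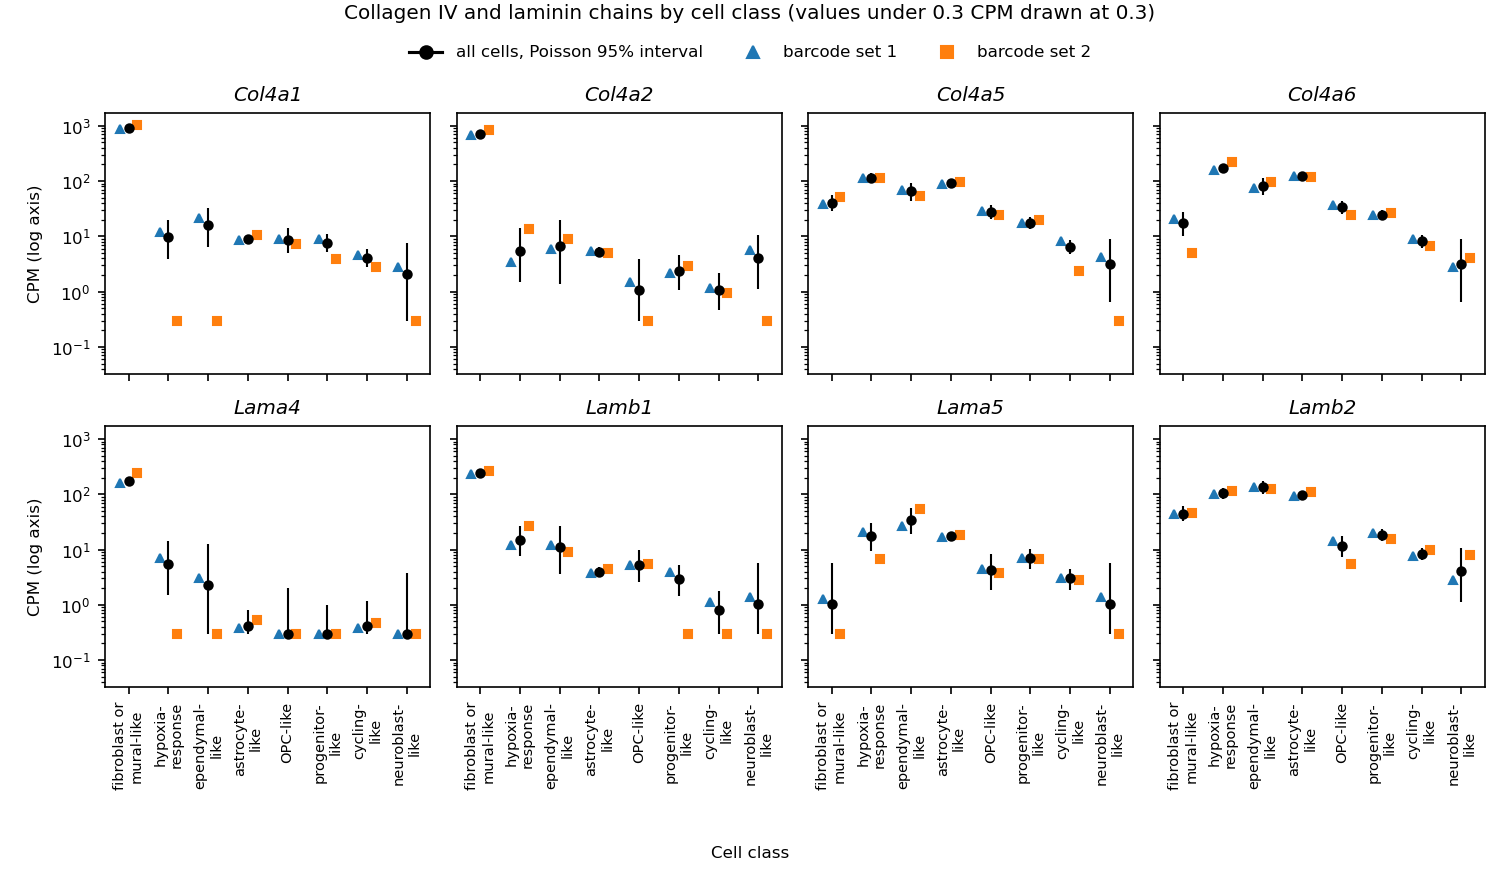
Level (CPM, log axis) of 4 collagen IV and 4 laminin chains in 8 cell classes; black points are all cells with exact Poisson 95% intervals, triangles and squares barcode sets 1 and 2. Col4a1, Col4a2, Lama4 and Lamb1 are highest in fibroblast or mural-like cells, whereas Col4a5, Col4a6, Lama5 and Lamb2 are lower there than in astrocyte-like cells.

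The network-forming and basement membrane-associated collagens followed Col4a1. Col6a1 (299 against 6.61 CPM), Col6a2 (161 against 0.78) and Col6a3 (84.7 against 0.27), chains of the beaded filaments of collagen VI, were called higher in fibroblast or mural-like cells. So were Col8a1 (289 against 0.67), a short-chain collagen of vessel walls, and Col7a1 (68.3 against 0.24), the anchoring fibril collagen. Col15a1 (30.6 against 0.37) and Col18a1 (384 against 14.9), whose products associate with basement membranes, were called as well, and Col18a1 was also at 60.7 CPM in ependymal-like and 56.6 in hypoxia-response cells. The collagen VI chains were not in the same proportion everywhere: Col6a1 made up 65.0% of Col6a1 and Col6a2 UMIs in fibroblast or mural-like cells (60.4 to 69.4%) and 93.2% in astrocyte-like cells (88.8 to 96.2%).

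The remaining collagens, among them those that attach to fibrils or span the membrane, behaved less uniformly. Col26a1 (61.2 against 1.63 CPM) and Col23a1 (19.4 against 1.95), a transmembrane collagen, were called higher in fibroblast or mural-like cells. Col9a3, a chain of collagen IX, was called lower: it was at 10.2 CPM there, 97.8 in astrocyte-like (97.5 and 98.6 in the sets), 68.7 in neural progenitor-like and 47.4 in cycling-like cells. Its partner chains Col9a1 and Col9a2 had only 45 and 64 UMIs in all kept cells, against 2928 of Col9a3. Col16a1, Col12a1, Col20a1 and Col22a1 were not called in this class; Col16a1 was at 28.6 CPM there and 24.6 in astrocyte-like cells.

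Of the proteoglycans, Dcn (decorin), which binds collagen fibrils, was at 1806 CPM in fibroblast or mural-like cells (1731 and 2104 in the sets) against 2.57 outside. Lum (lumican), of the same family, was at 285 CPM (282 and 295) against 0.72. Vcan (versican) was at 192 CPM against 30.8, and Bcan (brevican), a lectican of brain matrix, was called lower at 11.2 against 110 CPM. Vcan made up 94.5% of Vcan and Bcan UMIs in fibroblast or mural-like cells (90.3 to 97.2%), 45% in oligodendrocyte precursor-like cells (39.3 to 50.8%) and 18.8% in astrocyte-like cells (17.6 to 20.0%).

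All 6 glycoproteins were called higher. Vtn (vitronectin), a pericyte-enriched protein in brain, was at 437 CPM (414 and 528 in the sets) against 0.46 outside, and 96.2% of its UMIs lay in the class. Fn1 (fibronectin) was at 640 against 60.7 CPM, Tnc (tenascin C) at 247 against 10.9, Fbln1 (fibulin 1) at 98.9 against 6.96 and Postn (periostin) at 29.6 against 0.080, the last from 29 UMIs. Sparc was at 4580 CPM (4637 and 4354) against 1194, a 3.84-fold difference (interval 3.72 to 3.96). The plot of the class that holds each gene's UMIs shows the range from Col3a1, with 96.9% in fibroblast or mural-like cells, to Col9a1, with none.

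**Figure D3:**
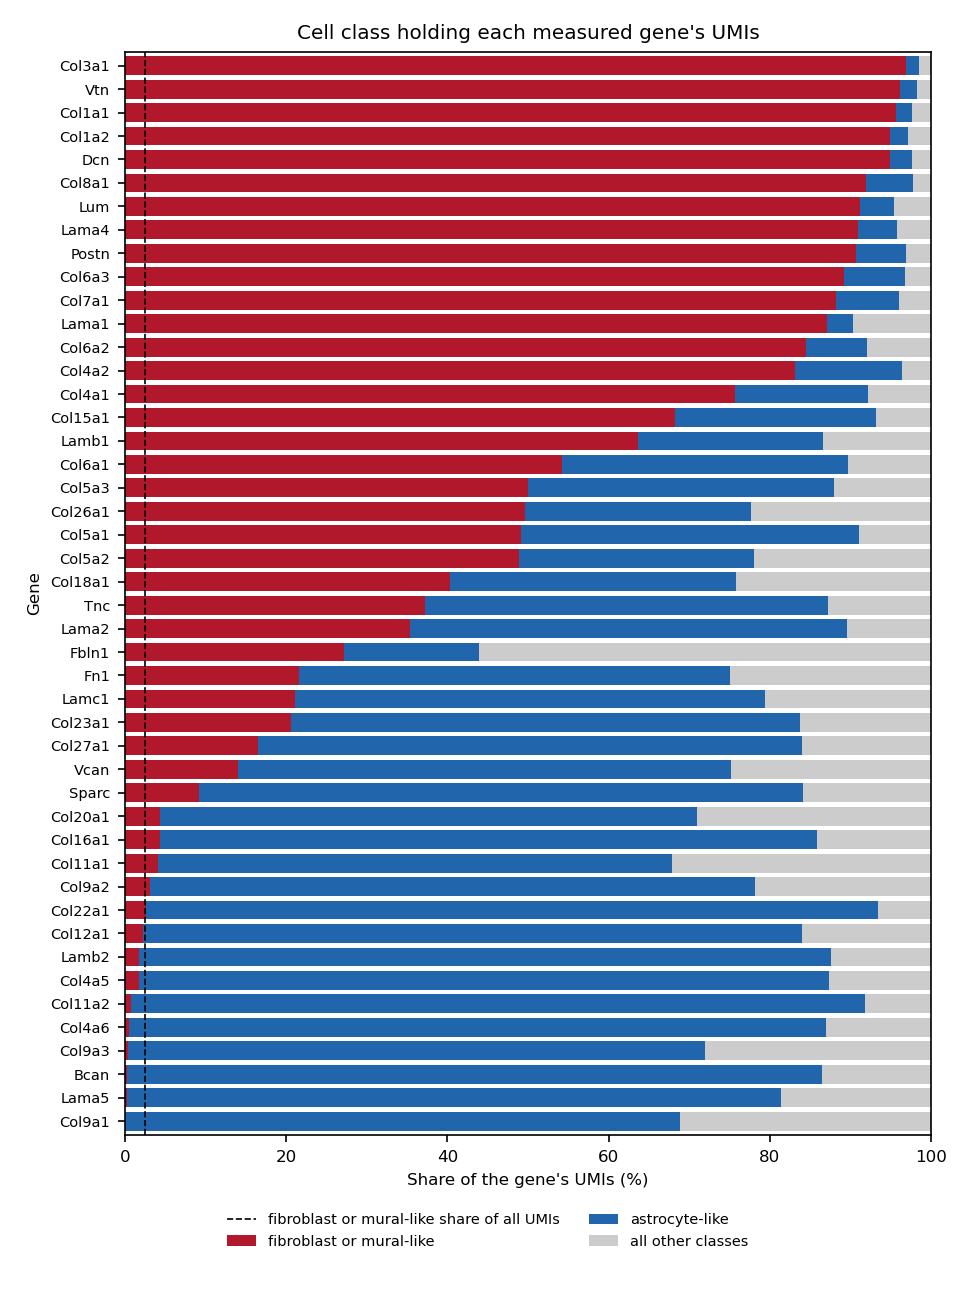
Share of each measured gene's UMIs (%) in fibroblast or mural-like cells (red), astrocyte-like cells (blue) and all other classes (grey); the dashed line is the 2.56% of all UMIs that fibroblast or mural-like cells hold. Vtn has 96.2% in red, Fn1 21.7% and Bcan 0.27%.

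Genes for making and using this matrix were counted from 6 lists that hold none of the 65 genes. In fibroblast or mural-like cells 20 of 25 measured collagen-modifying and crosslinking genes were called higher and 3 lower, where 10.0% of all genes were called higher and 16.2% lower; the same shares apply to the other lists. Serpinh1, the collagen chaperone, was at 1897 CPM there and 173 in astrocyte-like cells, and Ppib, a prolyl isomerase, at 1016 and 502. Elastic fibre and matricellular genes were called higher in 17 of 20 cases and lower in 1, proteases and inhibitors in 12 and 1 of 18 (Timp3, a matrix-bound inhibitor, 476 and 113 CPM). Basement membrane partners were called higher in 3 of 7; Nid1, which links laminin to collagen IV, was at 272 CPM and 1.91 in astrocyte-like cells. Matrix receptors were mixed, with 11 of 23 higher and 7 lower (Itgb1, a common integrin chain, 304 against 143 CPM in astrocyte-like cells; Ddr1, a collagen receptor kinase, 42.8 against 293). Brain matrix genes outside the 65 were higher in 1 of 7 and lower in 3, among them Ncan (neurocan). The UMI minimum again covered class and comparison cells together. Outside the class, 24 of the 25 collagen-modifying and 18 of the 20 elastic fibre and matricellular genes reached it. So did 17 of the 18 proteases and inhibitors and 21 of the 23 receptors. The counts of these lists can therefore rest in part on genes admitted by the class itself. List genes also took part in the main clustering, and Nid1 was among the leading genes of the class.

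The fibroblast or mural-like cells were then split into 5 sub-clusters, again without the 65 genes. One of 37 cells was led by the smooth muscle genes Actg2, Cnn1, Acta2 and Myl9, with 7 of 13 mural markers raised, and one of 79 cells by Gjb2, Nppc and Mgp. Vtn was at 1625 CPM in the Actg2-led cells (1782 and 1270 in the sets) and 157 in the Gjb2-led cells (134 and 251). Col8a1 was at 1013 and 141 CPM, and Tnc at 989 and 70.7. In the other direction, Dcn was at 377 CPM in the Actg2-led and 2884 in the Gjb2-led cells, and Lum at 5.89 (1 UMI) and 550. Col1a1 was at 1172 and 4013 CPM and Col6a1 at 35.3 and 486, and Col6a2 had 0 UMIs in the Actg2-led cells against 228 CPM. For each of these genes the intervals of the 2 sub-clusters do not overlap. Col3a1 (2403 and 2100 CPM) was similar in both, with barcode sets that differed in order.

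The other sub-clusters had 52, 30 and 26 cells. One, led by Ube2c and Cenpf, had 14 of 15 cycling markers raised and still had Col1a1 at 3559 CPM. Another was led by Vamp5 and Ramp2. The last was led by neural genes (Ttyh1, Mt3, Ncan), with 23 cells in set 1 and 3 in set 2; Col4a5 was at 96.6 CPM there (interval 49.9 to 169), beside 76.4 in the Vamp5-led cells (interval 35 to 145) and 5.89, from 1 UMI, in the Actg2-led cells. Whether those 26 barcodes hold more than 1 cell each was not tested. Over single cells thinned to 1500 UMIs (216 cells), Vtn was found in 16.7% of cells with a Dcn UMI (interval 11.2 to 23.5%) and in 55.0% of cells without (41.6 to 67.9%). Lum was found in 31.4% and 5% of the same cells, and Col8a1 in 17.3% and 48.3%. Each interval pair is separate.

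**Figure D4:**
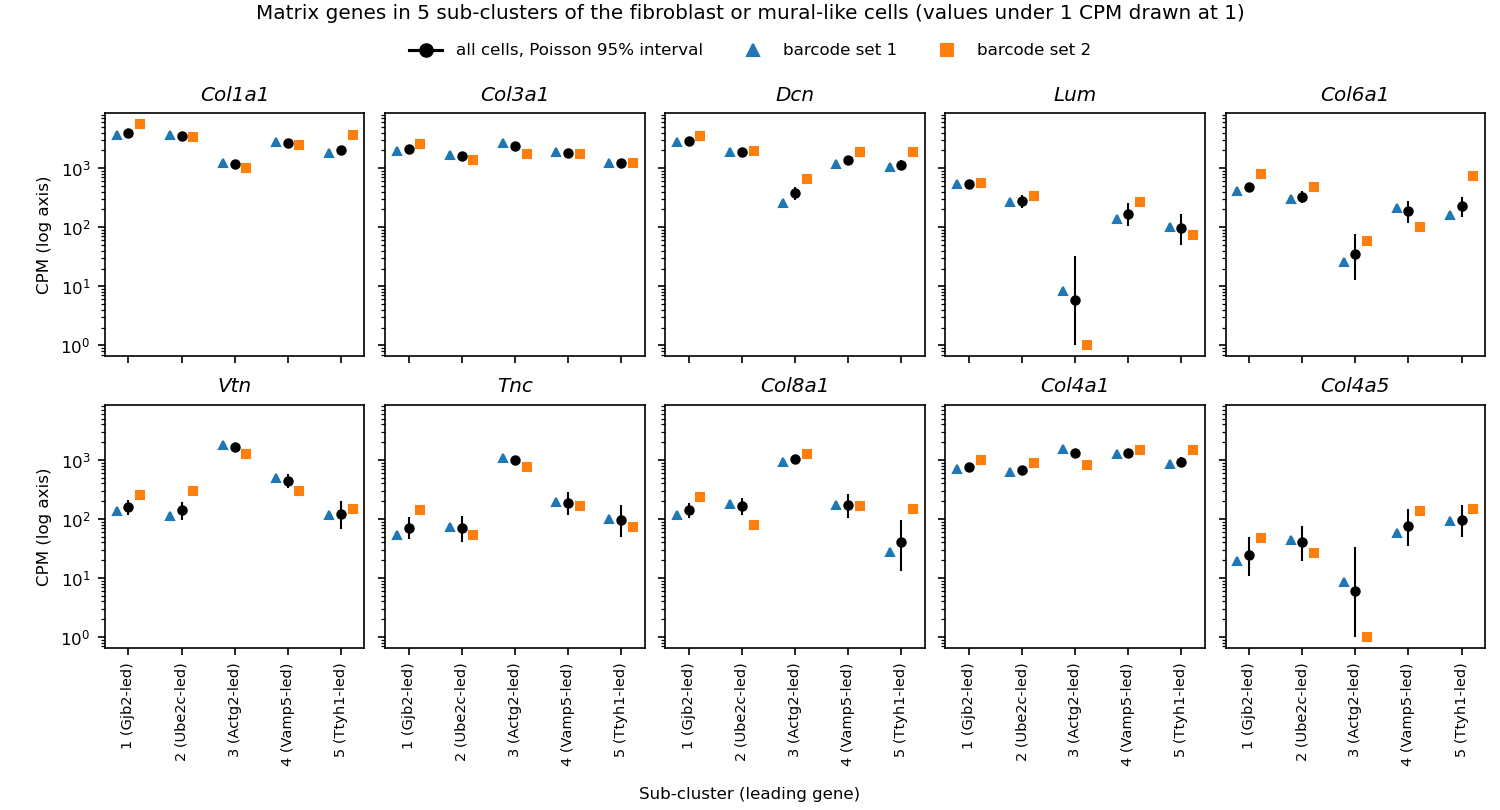
Level (CPM, log axis) of 10 matrix genes in 5 sub-clusters of the 224 fibroblast or mural-like cells, each named by number and leading gene; black points are all cells with Poisson 95% intervals, triangles and squares barcode sets 1 and 2. The Actg2-led cells have the highest Vtn (1625 CPM), Tnc (989) and Col8a1 (1013) and the lowest Dcn (377) and Lum (5.89).

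Astrocyte-like cells had 13 of the 46 genes called higher than in all other cells, where 31.6% of all genes were, and 24 lower, where 16.8% were. The 224 fibroblast or mural-like cells raise the comparison level of the genes they hold. With those cells left out of the comparison, which was decided after the values were seen, 23 of 35 measured genes were called higher (33.5% of all genes) and 1 lower (15.8%). The median log2 ratio was then 0.62 over the 35 genes and 0.18 over all. Lamb2 (98.9 against 19.3 CPM), Col4a5 (91.7 against 18.3), Col4a6 (122 against 24.9) and Bcan (165 against 35.2) were each 4.70-fold to 5.11-fold higher. Sparc was at 1715 CPM (1707 and 1739 in the sets) against 492, and Lama5 (17.3 against 5.34), Col16a1 (24.6 against 5.78) and Col12a1 (18.5 against 4.90) were among the others. Col22a1 (6.48 against 0.63) and Col11a2 (5.18 against 0.63) rested on 139 and 111 UMIs in the class. Fbln1 was the gene called lower (2.80 against 12.6 CPM).

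The 2 astrocyte-like clusters were led by Cldn10 and Gfap (2841 cells, 6 of 12 astrocyte markers raised) and by Pcp4 (4197 cells, 5 of 12 raised). In the Cldn10-led cells 4 of 34 measured genes (11.8%) were called higher, beside 3.57% of all genes. Another 4 (11.8%) were called lower, beside 5.38% of all genes, and 26 were not called. Fn1 was at 125 against 35.7 CPM, 3.51-fold higher (interval 3.15 to 3.93), and Col18a1 at 20.3 against 12.1. Vcan was at 24.6 against 47.6 CPM and Col5a1 at 4.81 against 9.92. The other calls, Col1a2, Col23a1, Col9a1 and Col22a1, were all at or under 8.66 CPM in both clusters, and the fold intervals of Col23a1 and Col9a1 include 1.

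Without fibroblast or mural-like cells in the comparison, basement membrane partners and matrix receptors were the lists most often raised in astrocyte-like cells. In that comparison 16 of 21 receptors and 7 of 7 partners were called higher and 1 and 0 lower, beside 33.5% and 15.8% of all genes. Against all other cells, 5 of 7 brain matrix genes, 14 of 23 receptors and 4 of 7 partners were called higher. Of these lists 0, 2 and 1 were called lower, where 31.6% of all genes were called higher and 16.8% lower. Dag1 (dystroglycan), which binds laminin, was at 216 CPM in astrocyte-like cells and 108 in fibroblast or mural-like cells. Sdc4, a cell surface heparan sulfate proteoglycan, was at 361 and 72.4 CPM, and Cd44, the hyaluronan receptor, at 178 and 29.6.

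Hypoxia-response cells, named from 8 of 8 genes of the low oxygen response, had 14 of 35 measured matrix genes called higher than the other cells without fibroblast or mural-like cells (4.41% of all genes). Against all other cells 9 of 46 were (4.10% of all genes). The count was 5 with 15 principal components, with called doublets kept or at a 2-fold threshold, and 11 at resolution 1.0 or in set 1 alone. With 15 principal components the class name went to a cluster of 1921 cells, led by Pvalb. Fn1 was at 548 CPM (interval 496 to 605; 547 in set 1, 555 in set 2) against 51.1, 10.7-fold higher, and was found in 52.7% of these cells. Its level came near the 640 CPM of fibroblast or mural-like cells, while Col1a1 and Dcn were at 4.14 and 2.76 CPM, from 3 and 2 UMIs. Col6a1 (30.4 against 6.14 CPM), Col18a1 (56.6 against 14.1), Col12a1 (41.4 against 12.1), Vcan (74.6 against 29.9) and Col4a6 (174 against 78.6) were also called. P4ha1, a collagen prolyl hydroxylase, was at 217 CPM against 44.1 in astrocyte-like cells. Ependymal-like cells, for which no calls were made, had Sparc at 2618 CPM, Fn1 at 155 and Lamb2 at 135.

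Oligodendrocyte precursor-like cells had 2 of 46 genes called higher than all other cells (6.0% of all genes), Vcan and Col11a1. Vcan was at 72.8 CPM (72.3 and 74.1 in the sets), against 38.2 in astrocyte-like and 9.54 in cycling-like cells. Col11a1, a minor fibrillar chain, was at 18.7 CPM (18.1 and 20.4), from 35 UMIs, against 9.52 in astrocyte-like cells. Without fibroblast or mural-like cells in the comparison, 12 of 35 were called lower (15.1% of all genes). Fn1 was at 6.96 CPM against 63.6, Lamb2 at 11.8 against 67.8 and Sparc at 618 against 1224.

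Set against all cells other than the astrocyte-like and the fibroblast or mural-like ones, a comparison added after the values were seen, the precursors had 7 of 26 genes called higher (8.75% of all genes) and 5 lower (7.84%). The higher ones were Vcan (5.22-fold), Tnc (5.49-fold), Col16a1 (5.29-fold), Col11a1 (3.87-fold), Bcan (3.17-fold), Col27a1 (2.76-fold) and Col4a5 (1.63-fold). Tnc differed between the sets, with 24.1 CPM in set 1 and 5.56 in set 2, and 1 cell held 31.4% and 5 cells 57.1% of its 35 UMIs in this class. Their brain matrix gene Tnr (tenascin R) was at 95.3 CPM against 40.6 in astrocyte-like cells.

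Dividing and neuronal cells had the least matrix RNA. Cycling-like cells had 1 of 46 genes called higher than all other cells (12.8% of all genes), Fbln1, at 16.1 CPM in both sets. Against cells other than fibroblast or mural-like, 26 of 35 were called lower (38.6% of all genes): Sparc was at 168 CPM against 1445, Col4a6 at 8.17 against 98.2 and Lamb2 at 8.31 against 78.8. In neural progenitor-like cells 16 of 35 were called lower (22.6% of all genes) and Col5a2 higher (13.3 against 7.92 CPM). In neuroblast-like cells 17 of 35 were called lower (22.3%), with Col4a6 at 3.11 against 82.5 CPM, while Fbln1 was again higher (18.6 against 6.65). The Fbln1 level ran from 2.80 CPM in astrocyte-like through 6.42 in oligodendrocyte precursor-like and 12.2 in neural progenitor-like to 16.1 in cycling-like cells and 18.6 in the neuroblast-like class, and the last 3 do not differ beyond their intervals.

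Outside the fibroblast or mural-like class, collagen I and III UMIs were sparse. The Col1a1 level was 2.85 CPM among astrocyte-like, 3.18 among neural progenitor-like, 2.72 among cycling-like and 3.21 among oligodendrocyte precursor-like cells. Summed over Col1a1, Col1a2 and Col3a1, ependymal-like cells were at 24.7 CPM, from 11 UMIs, and astrocyte-like cells at 6.30. A Col1a1 UMI was found in 87.9% of fibroblast or mural-like cells (median 4202.5 UMIs per cell) and 0.85% of astrocyte-like cells (median 2970.5); after thinning to 1500 UMIs these shares were 83.8% and 0.49%. Outside the class, 229 cells (1.79%) had a UMI of Col1a1, Col1a2 or Col3a1 and 2 had 5 or more. One of those, with 51, accounts for nearly all of the 275 CPM in microglia-like cells, which was 5.52 without it. Col1a1 made up 57.1% of Col1a1 and Col1a2 UMIs outside the class (50.6 to 63.5%) and 60.9% inside (59.5 to 62.3%), and 58.6% against 62.4% of Col1a1 and Dcn UMIs. Of Col1a1 and Col3a1 UMIs it made up 69.7% outside (62.8 to 76.1%) and 61.3% inside (59.9 to 62.7%). These intervals were barely separate, and the shares were not computed without the cell with 51 UMIs. The cell with 51 gave 22 of the 136 Col1a1 and 21 of the 102 Col1a2 UMIs counted outside. The part of free RNA in these UMIs was not tested.

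The proportion of collagen V to Col1a1 differed more between inside and outside the class. Taken with Col1a1, Col5a2 made up 9.31% of UMIs inside the class (8.33 to 10.4%) and 69.9% outside (65.5 to 74.1%). Col5a1 made up 6.28% inside (5.45 to 7.18%) and 60.0% outside (54.6 to 65.2%). In astrocyte-like cells Col5a1 was at 7.84 CPM and Col5a2 at 8.40, from 168 and 180 UMIs, with similar values in the sets.

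The remaining genes were too scarce to describe by class. Lama3 (24 UMIs), Col4a4 (17), Col14a1 (16), Lamc3 (13), Lamb3 (8), Col6a5 (8), Col13a1 (7), Col10a1 (5), Col8a2 (4), Col2a1 (2), Col25a1 (2) and Col6a6 (1) were under the minimum, with 14 of the 16 UMIs of Col14a1, a fibril-associated collagen, in fibroblast or mural-like cells. Col4a3, Col6a4, Col17a1, Col19a1, Col24a1 and Col28a1 had none. A count of 0 allows a level of up to 3 UMIs in all kept cells.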

How the data were processed

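RNA was counted in single cells of 2 libraries made with the 10x Chromium 3′ kit version 1, per the labels' protocols. The authors deposited 1 pooled matrix of whole UMI counts per gene and barcode, made with Cell Ranger 2.1.1 on mm10, per the submitters' processing notes; nothing used here says whether depth was equalised. The barcodes carry no label of library.

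Barcodes with under 500 genes (635) or over 10% mitochondrial UMIs (912) and 250 doublets called by Scrublet (scanpy 1.11.5; 2.42% of set 1, 0.323% of set 2) were left out. The call of so few doublets in set 2 says little, so doublets may remain. Counts were scaled to 10000, the 2000 most variable genes other than the 65 gave 30 components, 15 neighbours and, by the Leiden method at resolution 0.5, the clusters (leidenalg 0.10.2). A class name needed 3 markers at 10 UMIs and 2 times the other cells. Levels are CPM of summed UMIs with exact Poisson 95% intervals; shares carry Clopper-Pearson intervals. Calls need 1.5-fold and 30 UMIs in the class and comparison together; a count of 0 was taken to allow 3. Calls were checked on simulated counts. Gene positions are from GENCODE M21 (GRCm38), in which 98.8% of gene IDs were found.

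All members of the gene set may be named, except items that are not reported here; of each pathway list, at most the 5 genes with most UMIs. The genes, lists and settings were chosen with earlier results of these data known. The sub-clusters and the comparisons without fibroblast or mural-like cells were added after these values were seen. A gene's overlap with a neighbour or antisense gene was not resolved.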

Additional observations from a re-analysis of the deposited data

Results flagged for a closer look

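The 1657 barcodes left out of the classes also carried matrix RNA, a signal in data that the comparisons do not use: 2552 CPM over the 65 genes, beside 2303 in the kept cells. Col1a1 was at 12.5 CPM in them (39 UMIs) and 80.3 in the kept cells, while Col4a6 was at 116 against 78.9 CPM and Sparc at 1557 against 1281. Barcodes over the mitochondrial limit had the highest sum, 3241 CPM, and the 250 called doublets the lowest, 1924; a barcode can be in more than 1 of these sets.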

How the results depend on the processing

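No paired analysis was possible because each condition has 1 library and no barcode is tied to a library. The number of matrix genes called higher was 23 to 34 in fibroblast or mural-like cells over all settings run, 9 to 15 in astrocyte-like cells (apart from the changed comparison below) and 1 in cycling-like cells. At resolution 1.0 the astrocyte-like count was 9, with 7 of the 13 genes of the main setting among them. There a Pcp4-led cluster of 1321 cells and another of 1836 cells, both closest to the astrocyte markers, stayed unnamed. In hypoxia-response and precursor cells the number varied more. In hypoxia-response cells it was 9 against all other cells. It was 5 with 15 principal components, with called doublets kept and at a fold of 2. With no cell filter and in set 2 alone it was 6, and the 5 or 6 genes were all among the 9. With 15 principal components the name went to a cluster of 1921 cells led by Pvalb, against 275 cells led by Car9 in the main setting. The part of this change in the count was not tested. In oligodendrocyte precursor-like cells the number fell from 2 to 1 with the pathway lists also left out of clustering. It was 0 at resolution 0.3 and with no cell filter. The cells so named changed as well, from 548 to 1250 at resolution 0.3 and to clusters of 1136 and 125 without the lists. What part this had in the counts was not tested. No cluster was named neural progenitor-like without the lists, at resolution 0.3 or with no cell filter. At resolution 1.0, 17 of the 34 genes called lower in that class against all other cells kept the call. The neuroblast-like name went to no cluster with called doublets kept. At resolution 0.3 it went to 2073 cells, against 422 in the main setting. The share of matrix UMIs in fibroblast or mural-like cells (21.7%) was 21.3% with called doublets kept, 20.2% with no cell filter, 16.2% as a mean over cells, 22.8% in set 1 alone, 18.5% in set 2 alone, 20.5% without the 5 richest cells per class and set, 20.1% without the sub-cluster led by neural genes and 37.5% without Sparc. With fibroblast or mural-like cells out of the comparison, the astrocyte-like count was 23, and genes called lower in that class by the first comparison turned to log2 ratios above 0: Col5a1 0.82, Col6a1 0.71, Col4a2 0.56, Col4a1 0.38, Lamb1 0.14, Col5a3 0.13, Col8a1 0.10, Col18a1 0.091, Col15a1 0.088, Col6a3 0.038, Col7a1 0.025 and Postn 0.0087. The same was true in oligodendrocyte precursor-like cells of Vtn (0.29), Lamb1 (0.28), Lum (0.22), Dcn (0.12) and Col4a1 (0.093), and in cycling-like cells of Lama1 (0.010). These values follow from the cells compared. Single-gene ratios of called genes were compared over the other settings, apart from those of fold and UMI minimum. This was done for fibroblast or mural-like, astrocyte-like, oligodendrocyte precursor-like and cycling-like cells only. None of these ratios changed sign. Of them, 415 moved and 1313 stayed within the counting interval of the main value or within 0.1. Ratios in hypoxia-response, neural progenitor-like and neuroblast-like cells were not compared. Depth limits the genes under 30 UMIs.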
